A study of Homo sapiens with 24 samples.

Results

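The genes described here are 36 named genes of cholesterol and fatty acid synthesis and of their control by the SREBP transcription factors. They were taken by symbol from the gene tables of an RNA sequencing experiment in the established human melanoma line A375. All 36 have a row in both tables, out of 28008 rows in batch 1 and 60221 in batch 2. A low-count filter kept 35 of them in batch 1, where ABCG1 was too low to test, and 36 in batch 2.

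Cells were transfected with the plasmid pcDNA3.1, which carries a CAG promoter and puromycin resistance, and were grown for 48 h in medium with 2 µg/mL puromycin. The plasmid held no insert (empty vector), full-length SLNCR (FL), or SLNCR with 1 triplex-forming region deleted. SLNCR is a long noncoding RNA, and its triplex-forming regions (TFRs) are segments thought to pair with duplex DNA. Batch 1 compared empty vector, FL, ΔTFR1 and ΔTFR2, and batch 2 compared a separate empty vector group and FL group with ΔTFR4 and ΔTFR5. Each of the 8 groups had 3 libraries, described as biological replicates. How far their cultures were separate is not stated, so the p-values measure the spread between these libraries, which may be partly technical. All groups shared the transfection, the vector backbone and the puromycin, and the labels name no clone.

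Cells make cholesterol from acetyl-CoA through mevalonate, farnesyl diphosphate, squalene and lanosterol. When membrane sterol is low, SCAP escorts the SREBP precursors from the endoplasmic reticulum to the Golgi, where proteases release the active factors, which bind sterol regulatory elements together with NF-Y and Sp1. SREBP-2, from SREBF2, acts mainly on the sterol genes, and SREBP-1, from SREBF1, mainly on the fatty acid genes. INSIG1 and INSIG2 hold SCAP back when sterol is high, and INSIG1 is itself an SREBP target. Excess sterol instead activates the LXR receptors, whose targets ABCA1, ABCG1 and MYLIP export cholesterol or limit its uptake.

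Promoter sequences of 7 members show which SREBP-related letters precede their start sites. SREBF2 and INSIG1 are the factor and its feedback partner. HMGCS1, IDI1, EBP and DHCR7 are 4 synthesis genes whose RNA was lower in both batch 2 deletion groups than with empty vector, and ACSS2 is the member that was higher. Each line gives the 200 bases before 1 annotated start in RefSeq (GRCh38.p14), 5′ to 3′ on the strand of the gene. Where a gene had several windows, the one with the most NF-Y boxes was taken, so the number of marks is not that of a neutral choice. Capitals mark the sterol regulatory element core TCACNCCAC and the NF-Y box CCAAT on either strand (ATTGG is CCAAT read from the other strand).
SREBF2 (chr22:41832905-41833104, plus strand): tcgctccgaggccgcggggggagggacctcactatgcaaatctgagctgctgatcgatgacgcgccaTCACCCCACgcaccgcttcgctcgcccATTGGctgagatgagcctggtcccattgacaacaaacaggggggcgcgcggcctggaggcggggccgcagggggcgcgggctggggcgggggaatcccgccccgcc
INSIG1 (chr7:155297678-155297877, plus strand): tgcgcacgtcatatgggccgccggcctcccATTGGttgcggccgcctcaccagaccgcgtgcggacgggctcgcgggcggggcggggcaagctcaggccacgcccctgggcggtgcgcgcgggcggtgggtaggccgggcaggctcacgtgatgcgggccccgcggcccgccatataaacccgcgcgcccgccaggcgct
HMGCS1 (chr5:43313413-43313612, minus strand): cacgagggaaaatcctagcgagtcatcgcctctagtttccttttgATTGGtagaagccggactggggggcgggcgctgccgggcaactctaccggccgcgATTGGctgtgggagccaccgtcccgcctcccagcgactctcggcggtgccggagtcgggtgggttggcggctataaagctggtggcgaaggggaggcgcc
IDI1 (chr10:1048887-1049086, minus strand): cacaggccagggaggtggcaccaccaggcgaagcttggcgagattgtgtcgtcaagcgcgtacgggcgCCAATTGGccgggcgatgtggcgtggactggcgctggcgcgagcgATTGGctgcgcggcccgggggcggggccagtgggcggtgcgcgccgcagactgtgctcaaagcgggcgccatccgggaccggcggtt
EBP (chrX:48521608-48521807, plus strand): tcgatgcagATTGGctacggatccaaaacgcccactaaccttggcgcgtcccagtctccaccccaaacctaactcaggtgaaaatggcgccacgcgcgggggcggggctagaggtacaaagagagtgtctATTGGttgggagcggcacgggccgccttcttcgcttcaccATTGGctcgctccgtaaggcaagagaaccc
DHCR7 (chr11:71448394-71448593, minus strand): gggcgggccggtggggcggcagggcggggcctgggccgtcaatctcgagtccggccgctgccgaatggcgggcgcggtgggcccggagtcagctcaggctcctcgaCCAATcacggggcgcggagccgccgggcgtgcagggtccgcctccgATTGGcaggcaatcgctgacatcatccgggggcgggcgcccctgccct
ACSS2 (chr20:34874789-34874988, plus strand): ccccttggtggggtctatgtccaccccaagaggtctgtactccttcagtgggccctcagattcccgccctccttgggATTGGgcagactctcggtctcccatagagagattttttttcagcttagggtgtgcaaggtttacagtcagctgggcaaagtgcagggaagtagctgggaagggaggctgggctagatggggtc

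RefSeq windows from 250 bases before to 50 after a start were found for 31 of the 36 members. They are missing for ACAT2, FDFT1, SQLE, FASN and ABCG1. On either strand, the NF-Y box CCAAT was present for 22 of the 31 members (71%), against 39.7% of 27305 genes with a window. The Sp1 box GGGCGG was present for 30 (96.8%, against 48.3%) and the E-box CACGTG for 5 (16.1%, against 8.77%). The exact element core TCACNCCAC occurred in SREBF2 alone among the members, against 1.39% of all genes. In the IDI1 line the first capitals, CCAATTGG, hold overlapping NF-Y letters on both strands. These matches describe letters in a window and show no binding. The genes with a window include genes too low to test here, and the shares among tested genes alone were not computed.

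Libraries held 8627449 to 10789211 counts each in batch 1, against 24810090 to 33063293 in the deeper batch 2. SLNCR checked the labels of empty vector against the other groups (LINC00673 in batch 1, and in batch 2 LINC00511, whose row also covers other transcripts). A count per gene does not show which region a construct lacks, so the labels of FL and of each deletion were not checked. In batch 1 it lay at 18.91 to 20.82 CPM (counts scaled to the TMM library size) in the empty vector libraries and at 165.1 to 239.9 in the others. In batch 2 it lay at 27.89 to 30.13 CPM with empty vector and at 191.6 to 728.1 in the others. Several libraries stood apart. In batch 2 the FL libraries held 728.1, 658.3 and 334.1 CPM of SLNCR. FL replicate 3 lay nearest to the empty vector mean of the 3 FL libraries for 25 of 36 members, and for 67.5% of all tested genes. FL replicate 1 had a Spearman rho of -0.524 between each gene's deviation from the batch mean and its GC content, against 0.015 and 0.127 in the other FL libraries. ΔTFR5 replicate 3 held 191.6 CPM of SLNCR, against 320.8 and 375.7, and was nearest to empty vector for 21 of 36 members and 44.5% of all genes. In batch 1 the same rho was -0.588 to -0.365 in the FL libraries, 0.111 to 0.524 with empty vector, 0.022 to 0.315 with ΔTFR1 and 0.043 to 0.277 with ΔTFR2.

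The labels give the cell type as epithelial. EPCAM, a defining epithelial gene, reached at most 0.741 CPM and CDH1 at most 5.01. The keratin genes KRT8 and KRT18 lay at 126.1 to 182.3 and 287.5 to 400.8 CPM in batch 1, and at 59.14 to 169.4 and 227.6 to 522.5 in batch 2. SOX10, a neural crest factor, lay at 10.89 to 17.22 CPM in batch 1 and 43.91 to 77.91 in batch 2. The pigment genes PMEL and MLANA lay at 2.99 CPM or less. In batch 2 the 12 melanoma and neural crest genes summed to 2370 to 2450 CPM with empty vector, 2290 to 2840 with FL, 2700 to 2910 with ΔTFR4 and 2470 to 2520 with ΔTFR5. The 8 epithelial genes summed to 596 to 656, 300 to 711, 428 to 542 and 590 to 637 CPM in the same groups. In batch 1 the first list summed to 1490 to 1540 CPM with empty vector, 1420 to 1480 with FL, 1490 to 1510 with ΔTFR1 and 1510 to 1520 with ΔTFR2. The epithelial list summed there to 530 to 589, 419 to 474, 494 to 528 and 491 to 536 CPM, lowest with FL. AXL was the largest term of the melanoma and neural crest list, at 788.4 to 853.8 CPM in batch 1 and 1235 to 1908 in batch 2. TYR and S100B of that list lay at 0.83 CPM or less in every library. The part of either list in the results was not tested. Markers of blood cells summed to 3.12 CPM or less and those of endothelium to 2.22 or less in every library.

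In batch 2, 8 of the 18 genes that lead from acetyl-CoA to cholesterol fell with ΔTFR4 against empty vector and 7 fell with ΔTFR5, while 0 of them rose. The others did not pass the test, and SC5D (differences of 0.23 and 0.24) and TM7SF2 (0.06 and 0.62) lay above 0 with both deletions. With ΔTFR4, 16 of 36 members (44.4%) fell and 1 rose at an adjusted p under 0.05. Among all 18763 genes tested 11.4% fell and 12.5% rose. With ΔTFR5, 10 of 36 (27.8%) fell and 1 rose, against 4.68% and 5.48% of all genes. The members' median log2 fold change was -0.48 with ΔTFR4 and -0.42 with ΔTFR5, while the median of all genes was 0.02 and 0.02. All 10 members that fell with ΔTFR5 were among the 16 that fell with ΔTFR4, and these comparisons share their empty vector libraries. In cells measured in bulk, fewer cells of a type and less RNA per cell cannot be told apart.

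The 3 ΔTFR4 libraries lay below all 3 empty vector libraries for 24 of 36 members, against 27.5% of all genes. For ΔTFR5 this held for 21 of 36, against 21.8% of all genes. Without FL replicate 1 in the model, an alternative added after seeing the data, 23 members fell and 2 rose with ΔTFR4, and 20 fell and 1 rose with ΔTFR5. Of all genes, 18.9% and 12.3% fell in those fits, and each earlier call of a member was kept. With each library's GC trend removed, 21 members fell with ΔTFR4 and 18 with ΔTFR5, against 16.4% and 9.48% of all genes. Leaving out 1 of the libraries compared left 10 to 14 members called with ΔTFR4 and 5 to 12 with ΔTFR5, against 11.9 to 15% and 2.27 to 8.96% of all genes called in those fits.

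**Figure D1:**
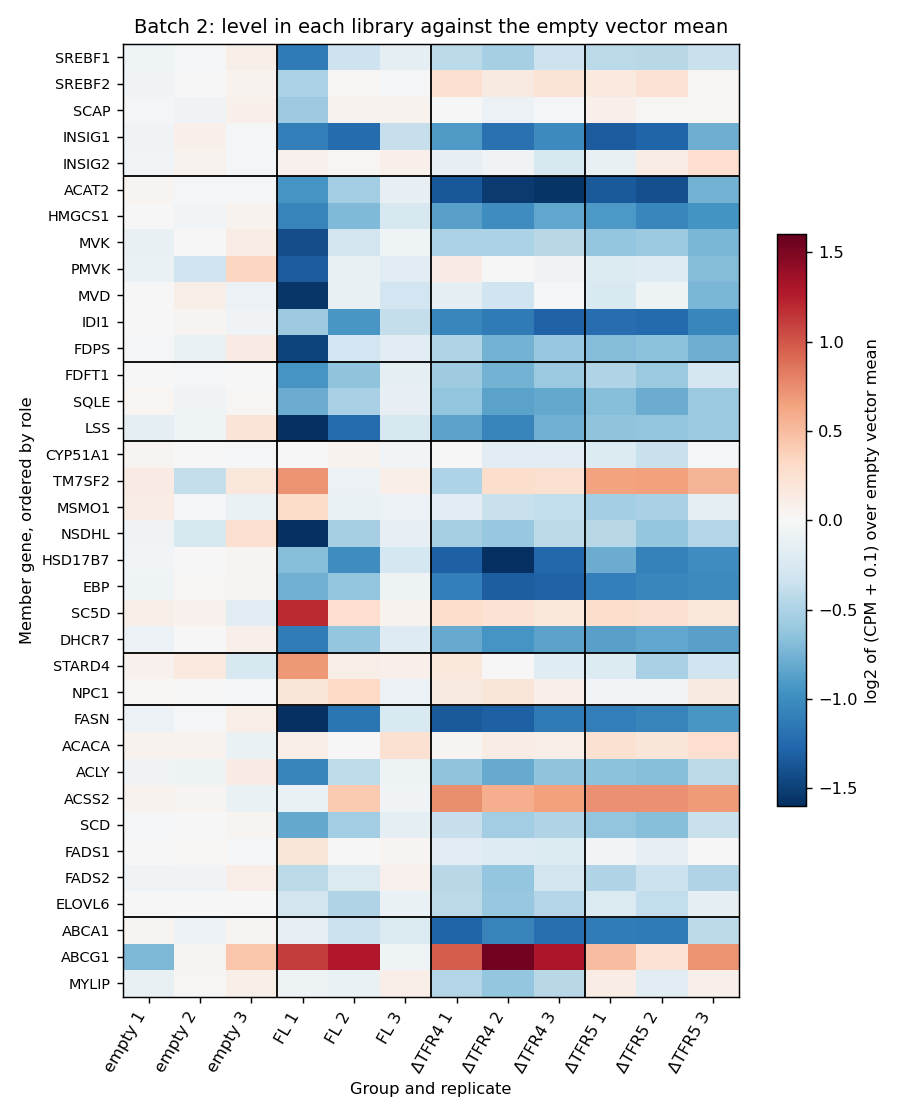
Level of each of the 36 members in the 12 libraries of batch 2, as log2 of CPM plus 0.1 over the empty vector mean, with genes ordered by role and colours ending at ±1.6. INSIG1, ACAT2, HMGCS1, IDI1, SQLE, HSD17B7, EBP, DHCR7, FASN and ABCA1 are blue (lower) in the ΔTFR4 and ΔTFR5 libraries, ACSS2, the low-count ABCG1 and, more faintly, SC5D are red (higher) in both, and FL replicate 3 is closer to empty vector than FL replicates 1 and 2 for most rows.

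Among the 5 genes of sterol sensing, INSIG1 fell and the other 4 did not pass the test. INSIG1, the sterol-regulated brake on SCAP, lay at 112.9, 123.7 and 115.5 CPM with empty vector, 54.54, 49.86 and 91.06 with FL, 62.61, 51.1 and 57.66 with ΔTFR4 and 46.76, 48.42 and 68 with ΔTFR5. All 6 deletion libraries were below the empty vector libraries. The differences were -1.04 ± 0.21 (adjusted p = 0.00448) with ΔTFR4 and -1.11 ± 0.21 (adjusted p = 0.00787) with ΔTFR5, about 0.487 and 0.464 of the empty vector level. SREBF2, the gene of SREBP-2, lay at 208.9, 217.9 and 225.5 CPM with empty vector, 153.5, 220.9 and 212.6 with FL, 259.6, 239.7 and 252.4 with ΔTFR4 and 242.4, 255.3 and 221.3 with ΔTFR5. Its ΔTFR4 libraries were above the empty vector libraries and its ΔTFR5 libraries overlapped them, with differences of 0.20 ± 0.13 (adjusted p = 0.283) and 0.14 ± 0.13 (adjusted p = 0.539). SREBF1, the gene of SREBP-1, lay at 314.9, 321.3 and 351.4 CPM with empty vector, 150.8, 260.9 and 295.4 with FL, 243.9, 228.3 and 261.4 with ΔTFR4 and 243.4, 241.2 and 258 with ΔTFR5. Both deletions were below empty vector in every library, with differences of -0.43 ± 0.19 (adjusted p = 0.113) and -0.41 ± 0.19 (adjusted p = 0.181). Without FL replicate 1 in the model these differences of SREBF1 passed, at adjusted p = 0.00162 and 0.00416. SCAP, the escort protein, lay at 130.8, 127.5 and 140 CPM with empty vector, 89.05, 138 and 138.4 with FL, 132.5, 124.8 and 129.7 with ΔTFR4 and 140.5, 134.5 and 135.7 with ΔTFR5, and the groups overlapped. INSIG2, the second SCAP-retaining protein, lay at 12.11, 12.91 and 12.3 CPM with empty vector, 13.06, 12.66 and 13.18 with FL, 11.36, 11.97 and 10.37 with ΔTFR4 and 11.41, 13.47 and 15.02 with ΔTFR5. Differences of INSIG2 were -0.15 ± 0.14 (adjusted p = 0.47) and 0.10 ± 0.14 (adjusted p = 0.7).

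Of the 7 genes from acetyl-CoA to farnesyl diphosphate, 3 fell with each deletion: ACAT2, HMGCS1 and IDI1. ACAT2, which joins acetyl-CoA units in the first step, lay at 39.53, 37.48 and 37.99 CPM with empty vector, 19.91, 26.02 and 34.96 with FL, 14.95, 13.22 and 12.86 with ΔTFR4 and 15.03, 14.4 and 22.59 with ΔTFR5. Every deletion library was below every empty vector library, with differences of -1.48 ± 0.21 (adjusted p = 0.000898) and -1.14 ± 0.21 (adjusted p = 0.0065). The ACAT2 exons overlap those of TCP1 on the other strand, and the strand setting of the counting is not given in the sources used here. HMGCS1, which makes HMG-CoA, lay at 37.54, 36.53 and 39.12 CPM with empty vector, 17.99, 23.14 and 31.46 with FL, 20.7, 18.96 and 21.23 with ΔTFR4 and 19.96, 18.32 and 19.43 with ΔTFR5. None of its deletion libraries reached the empty vector range, and the differences were -0.89 ± 0.17 (adjusted p = 0.00329) and -0.97 ± 0.17 (adjusted p = 0.00537). IDI1, the isopentenyl diphosphate isomerase, lay at 60.01, 61.77 and 57.51 CPM with empty vector, 39.98, 31.37 and 45.98 with FL, 28.93, 27.23 and 24.35 with ΔTFR4 and 25.73, 25.12 and 28.88 with ΔTFR5. The FL libraries lay between those of empty vector and those of both deletions, without overlap on either side. IDI1 differed by -1.15 ± 0.14 (adjusted p = 0.000558) with ΔTFR4 and -1.17 ± 0.14 (adjusted p = 0.000906) with ΔTFR5, the lowest adjusted p of any member in each comparison.

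The other 4 genes of this stretch did not pass. FDPS, which makes farnesyl diphosphate, had means of 61.9 CPM with empty vector, 40.5 with ΔTFR4 and 37.8 with ΔTFR5, with differences of -0.61 ± 0.24 (adjusted p = 0.0866) and -0.71 ± 0.24 (adjusted p = 0.0827). MVK, the mevalonate kinase, differed by -0.49 ± 0.25 (adjusted p = 0.172) and -0.65 ± 0.25 (adjusted p = 0.115). PMVK, the next kinase, differed by 0.03 ± 0.28 (0.949) and -0.36 ± 0.28 (0.45), and MVD, the decarboxylase, by -0.16 ± 0.29 (0.718) and -0.33 ± 0.29 (0.502), with adjusted p in parentheses. Without FL replicate 1 in the model, MVK and FDPS passed with both deletions, and PMVK and MVD with neither. The table lists 8 rows named as pseudogenes of FDPS, among which the authors' counting could split reads.

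Between squalene and lanosterol, FDFT1 and SQLE fell with ΔTFR4 and SQLE fell with ΔTFR5. SQLE, the squalene epoxidase, lay at 57.62, 53.81 and 57.06 CPM with empty vector, 32.29, 39.26 and 51.29 with FL, 36.08, 30.86 and 31.79 with ΔTFR4 and 35.07, 32.43 and 37.24 with ΔTFR5. Both deletion groups were below empty vector in every library, with differences of -0.77 ± 0.15 (adjusted p = 0.00414) and -0.69 ± 0.15 (adjusted p = 0.016). FDFT1, the squalene synthase, had means of 123 CPM with empty vector, 78.9 with ΔTFR4 and 90.2 with ΔTFR5. Its differences were -0.64 ± 0.17 (adjusted p = 0.0162) and -0.44 ± 0.17 (adjusted p = 0.111). LSS, which closes the ring to lanosterol, differed by -0.89 ± 0.33 (adjusted p = 0.0683) and -0.62 ± 0.33 (adjusted p = 0.248). Its FL libraries spread from 14.51 to 56.88 CPM, which enters the shared estimate of the spread, and without FL replicate 1 the adjusted p of LSS was 0.00471 and 0.0397.

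Among the 8 genes from lanosterol to cholesterol, HSD17B7, EBP and DHCR7 fell with both deletions. EBP, the sterol isomerase, lay at 62.6, 66.89 and 67.96 CPM with empty vector, 38.53, 42.48 and 62.26 with FL, 30.82, 26.33 and 26.81 with ΔTFR4 and 30.86, 31.96 and 32.42 with ΔTFR5. Neither deletion group overlapped empty vector or FL, and the differences from empty vector were -1.23 ± 0.16 (adjusted p = 0.000678) and -1.05 ± 0.16 (adjusted p = 0.00264). HSD17B7, a sterol ketone reductase, lay at 13.38, 13.82 and 14.23 CPM with empty vector, 8.56, 6.901 and 11.37 with FL, 5.524, 4.155 and 5.726 with ΔTFR4 and 7.913, 6.449 and 6.89 with ΔTFR5. It differed by -1.42 ± 0.20 (adjusted p = 0.000841) with ΔTFR4 and -0.96 ± 0.19 (adjusted p = 0.0101) with ΔTFR5, and 2 rows of the table are named as its pseudogenes. DHCR7, the reductase of the last step of one branch, lay at 105.1, 112.4 and 118.7 CPM with empty vector, 51.36, 72.66 and 97.37 with FL, 63.89, 58.02 and 61.64 with ΔTFR4 and 61.51, 62.78 and 61.45 with ΔTFR5. All deletion libraries were below all empty vector libraries, with differences of -0.87 ± 0.18 (adjusted p = 0.00441) and -0.85 ± 0.18 (adjusted p = 0.0111).

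The other 5 genes of this stretch gave a mixed picture. CYP51A1, the lanosterol demethylase, lay near its empty vector level, with differences of -0.12 ± 0.11 (adjusted p = 0.464) and -0.19 ± 0.11 (adjusted p = 0.285). MSMO1, the methyl sterol oxidase that acts after it, differed by -0.31 ± 0.15 (adjusted p = 0.153) and -0.39 ± 0.15 (adjusted p = 0.117), and NSDHL, which acts in the same complex, by -0.52 ± 0.32 (adjusted p = 0.257) and -0.51 ± 0.32 (adjusted p = 0.33). SC5D, the sterol C5 desaturase, was higher with ΔTFR4 (36.4 to 39.32 CPM) and ΔTFR5 (36.48 to 39.44) than with empty vector (28.72 to 34.36), without passing the test (0.23 ± 0.23, adjusted p = 0.492 and 0.24 ± 0.23, adjusted p = 0.539). TM7SF2, a sterol reductase, stayed at 3.874 CPM or less in all libraries. Its differences were 0.06 ± 0.28 (adjusted p = 0.902) and 0.62 ± 0.28 (adjusted p = 0.172). From lanosterol to cholesterol the differences with ΔTFR4 thus ran from -1.42 for HSD17B7 to 0.23 for SC5D.

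**Figure D2:**
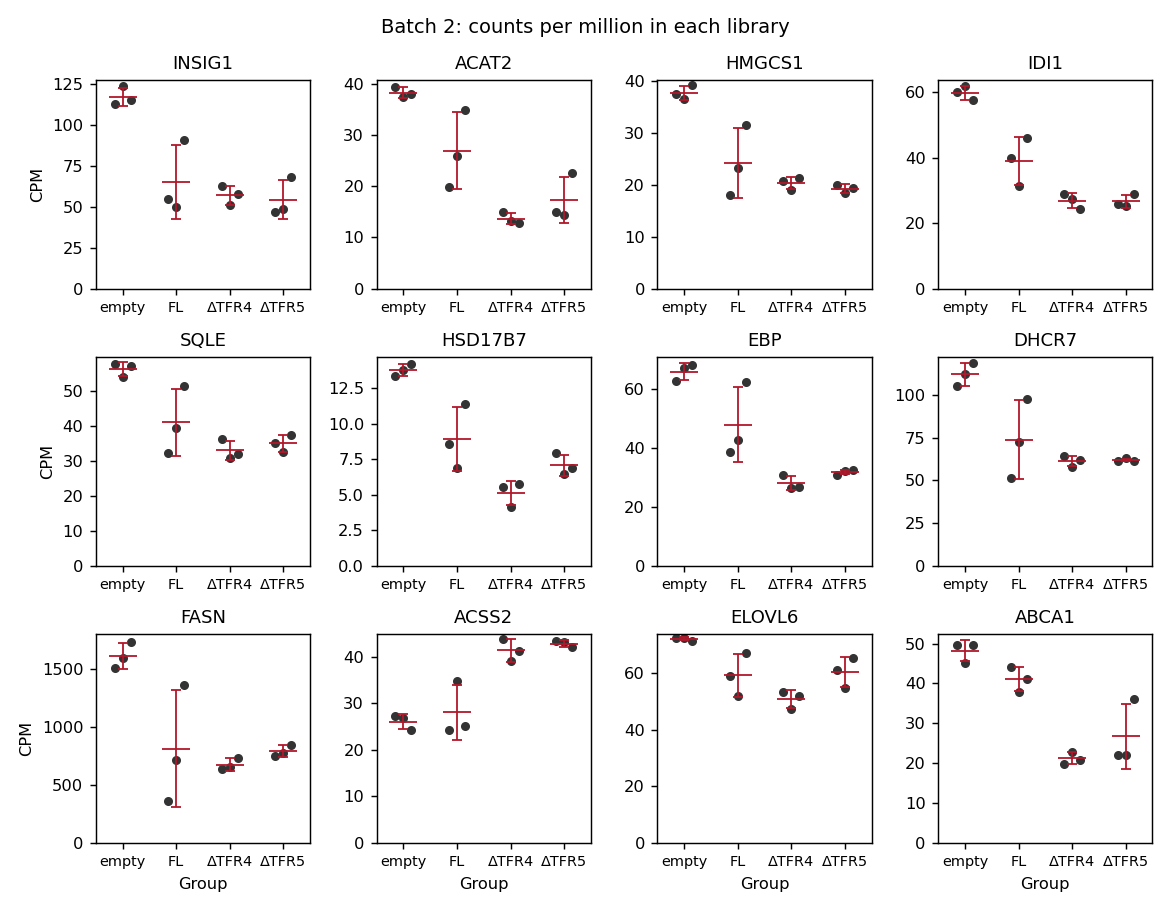
CPM of the 12 members with the lowest adjusted p in batch 2, in each library (points), with the group mean and SD (bars). Every gene but ACSS2 is lower with ΔTFR4 and ΔTFR5 than with empty vector, ACSS2 is higher, and the FL points are widely spread, with replicate 3 (right) near empty vector for ACAT2, SQLE and EBP.

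The fatty acid genes moved in both directions. FASN, the fatty acid synthase, lay at 1508, 1599 and 1732 CPM with empty vector, 361, 715.9 and 1361 with FL, 633.3, 653.4 and 735.2 with ΔTFR4 and 749.9, 770.9 and 847.1 with ΔTFR5. It fell with ΔTFR4, with a difference of -1.26 ± 0.32 (adjusted p = 0.014), and its difference with ΔTFR5 was -1.03 ± 0.32 (adjusted p = 0.0582), although no library of either group reached the empty vector range. ACSS2, which makes acetyl-CoA from acetate, lay at 27.24, 26.83 and 24.25 CPM with empty vector, 24.21, 34.91 and 25.21 with FL, 43.88, 39.05 and 41.34 with ΔTFR4 and 43.46, 43.22 and 42.09 with ΔTFR5. It was the only member that rose, by 0.66 ± 0.14 (adjusted p = 0.00569) with ΔTFR4 and 0.72 ± 0.14 (adjusted p = 0.00949) with ΔTFR5, about 1.58 and 1.64 times the empty vector level. ELOVL6, a fatty acid elongase, lay at 72.31, 72.39 and 71.48 CPM with empty vector, 58.87, 51.77 and 67.01 with FL, 53.34, 47.4 and 51.94 with ΔTFR4 and 61.11, 54.7 and 65.25 with ΔTFR5. It fell with ΔTFR4 (-0.50 ± 0.12, adjusted p = 0.00996) and differed by -0.26 ± 0.12 (adjusted p = 0.191) with ΔTFR5.

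SCD, which desaturates stearoyl-CoA, fell with both deletions, with differences of -0.47 ± 0.15 (adjusted p = 0.0433) and -0.55 ± 0.15 (adjusted p = 0.041). Its mean was 1790 CPM with empty vector, 1290 with ΔTFR4 and 1220 with ΔTFR5. ACLY, which makes acetyl-CoA from citrate, and FADS2, a fatty acid desaturase, fell with ΔTFR4, with differences of -0.70 ± 0.19 (adjusted p = 0.0186) and -0.44 ± 0.14 (adjusted p = 0.0374). With ΔTFR5 they differed by -0.58 ± 0.19 (adjusted p = 0.0682) and -0.44 ± 0.14 (adjusted p = 0.0679). ACACA, the acetyl-CoA carboxylase, and FADS1, the neighbour of FADS2 in the genome, did not pass. ACACA differed by 0.09 ± 0.10 (adjusted p = 0.568) and 0.23 ± 0.10 (adjusted p = 0.163), and FADS1 by -0.20 ± 0.10 (adjusted p = 0.161) and -0.06 ± 0.10 (adjusted p = 0.765). Exons of FADS1 and FADS2 overlap on opposite strands.

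Among the LXR targets, ABCA1, the cholesterol exporter, lay at 49.74, 45.17 and 49.68 CPM with empty vector, 44.12, 37.94 and 41.2 with FL, 19.85, 22.85 and 20.82 with ΔTFR4 and 22.07, 21.91 and 36.14 with ΔTFR5. The ΔTFR4 libraries were below FL and empty vector without overlap, and ΔTFR5 replicate 3 lay between FL and the other ΔTFR5 libraries. ABCA1 changed by -1.18 ± 0.18 (adjusted p = 0.00115) and -0.85 ± 0.17 (adjusted p = 0.0111). MYLIP, a ligase that degrades lipoprotein receptors, fell with ΔTFR4 (-0.51 ± 0.14, adjusted p = 0.0225) and differed by 0.01 ± 0.14 (adjusted p = 0.967) with ΔTFR5. ABCG1, a second sterol exporter, had 116 counts in all 12 libraries together, and differed by 1.41 ± 0.49 (adjusted p = 0.0517) and 0.56 ± 0.48 (adjusted p = 0.491). ABCA1 and ABCG1 had differences of opposite sign. The genes of cholesterol movement did not pass. STARD4, a sterol carrier, differed by 0.01 ± 0.18 (adjusted p = 0.982) and -0.34 ± 0.18 (adjusted p = 0.243), and NPC1, which releases cholesterol from lysosomes, by 0.14 ± 0.12 (adjusted p = 0.426) and 0.02 ± 0.12 (adjusted p = 0.928).

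**Figure D3:**
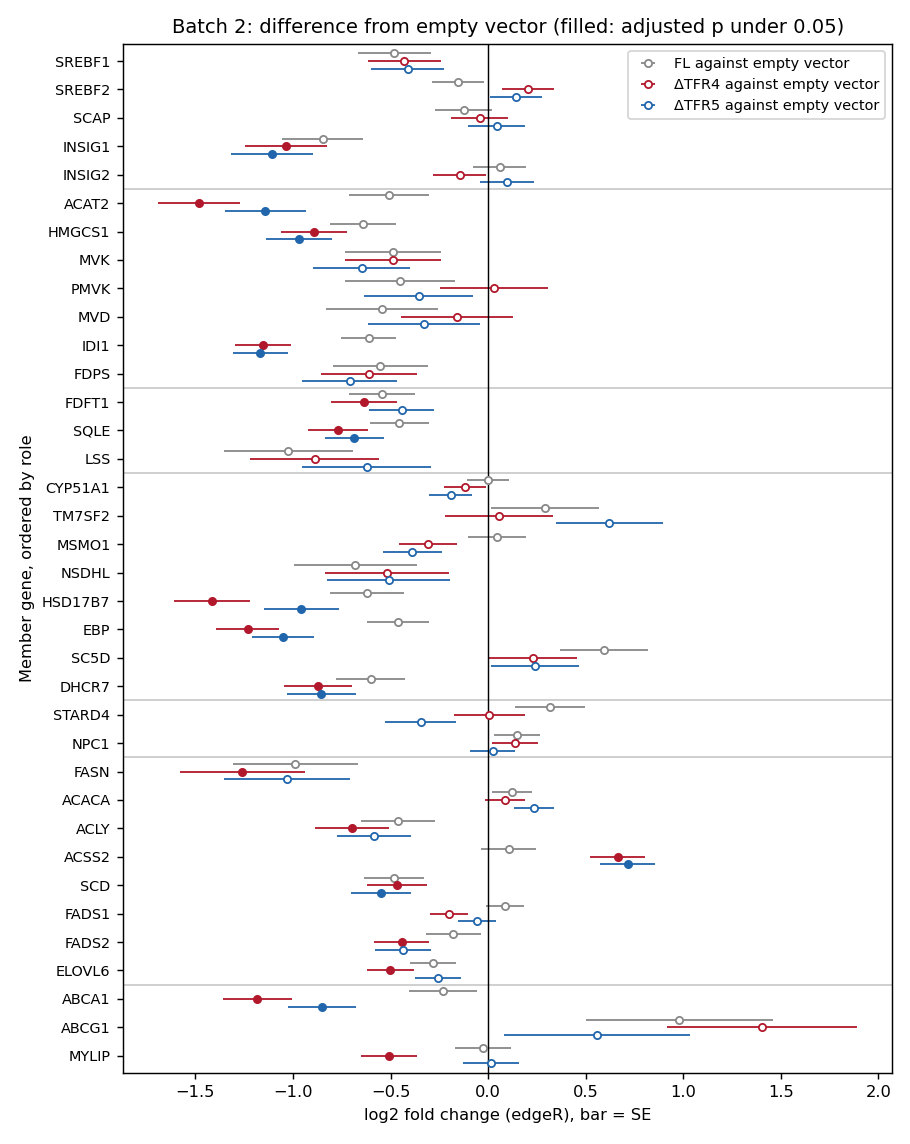
Log2 fold change against empty vector with its SE for each member in batch 2, for FL (grey), ΔTFR4 (red) and ΔTFR5 (blue), with filled points at an adjusted p under 0.05. The filled points are 17 for ΔTFR4, 11 for ΔTFR5 and 0 for FL, and all are left of 0 except ACSS2. The grey points of INSIG1, IDI1, ACAT2 and EBP lie between 0 and the coloured ones, while that of LSS lies left of its coloured ones.

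With FL against empty vector in batch 2, edgeR called 0 of 36 members, against 1.16% of all genes, while 17 members had an unadjusted p under 0.05, against 26.3% of all genes. The median of the members was -0.45, and 18 of them were below empty vector in all 3 FL libraries, against 11.2% of all genes. INSIG1 differed by -0.85 ± 0.21 (adjusted p = 0.0608), IDI1 by -0.61 ± 0.14 (adjusted p = 0.0561), HMGCS1 by -0.64 ± 0.17 (adjusted p = 0.0659) and FASN by -0.99 ± 0.32 (adjusted p = 0.0947). LSS had the largest fall of the members, at -1.02, larger than its fall with either deletion, and it also did not pass. ACSS2, which rose with the deletions, differed by 0.10 ± 0.14 (adjusted p = 0.653). DESeq2 called 11 members, each lower with FL: INSIG1, HMGCS1, IDI1, FDFT1, SQLE, LSS, HSD17B7, EBP, DHCR7, FASN and SCD. Of the genes to which DESeq2 gave an adjusted p, 3.58% fell. Without FL replicate 3, whose SLNCR level was the lowest of the 3, edgeR called 18 members as lower and 1, SC5D, as higher, against 13.8% and 17% of all genes. Without FL replicate 1 it called 0, against 0.26%.

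A direct test of ΔTFR4 against FL called 6 of 36 members. ACSS2 rose (1 of 36, against 1.9% of all genes) and ACAT2, IDI1, HSD17B7, EBP and ABCA1 fell (5 of 36, against 2.47%). ABCA1 differed by -0.95 ± 0.18 (adjusted p = 0.0127), ACAT2 by -0.97 ± 0.21 (adjusted p = 0.0237), EBP by -0.77 ± 0.16 (adjusted p = 0.0218), HSD17B7 by -0.79 ± 0.19 (adjusted p = 0.0393) and IDI1 by -0.54 ± 0.14 (adjusted p = 0.0481). ACSS2 differed by 0.56 ± 0.14 (adjusted p = 0.0431). For each of these 6 the FL and ΔTFR4 libraries did not overlap, which follows in part from the call. Of all 36 members, 9 lay below FL and 3 above it without overlap, against 2236 and 2303 of all 18763 genes. INSIG1, which was low in both groups, differed by -0.19 ± 0.21 (adjusted p = 0.62), and FASN by -0.27 ± 0.32 (adjusted p = 0.646). No member was called once any 1 of the ΔTFR4 libraries was left out, and 12 were called without FL replicate 1, against 8.88% of all genes. For the fits that left out a ΔTFR4 library, the share of all genes called is not given here.

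For ΔTFR5 against FL, edgeR called 0 of 36 members, against 1.38% of all genes, with 8 at an unadjusted p under 0.05, against 20.8%. DESeq2 called 5, against 8.05% of the genes with an adjusted p. ACSS2 differed by 0.61 ± 0.14 (adjusted p = 0.0529), IDI1 by -0.56 ± 0.14 (adjusted p = 0.0676), EBP by -0.59 ± 0.16 (adjusted p = 0.0766) and STARD4 by -0.67 ± 0.18 (adjusted p = 0.0777). Without FL replicate 1, 8 members were called (ACSS2 higher, and ACAT2, HMGCS1, MVK, IDI1, FDPS, EBP and DHCR7 lower), against 3.1% of all genes, and 7 without FL replicate 3, against 17.9%. ΔTFR5 against ΔTFR4 called 0 of 36, against 0.453% of all genes, with 2 at an unadjusted p under 0.05 (against 9.7%) while DESeq2 called 0. The nearest to a call were MYLIP, with a difference of 0.52 ± 0.14 (adjusted p = 0.23), and HSD17B7, with 0.46 ± 0.20 (adjusted p = 0.47).

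Over the 12 libraries of batch 2 the members varied together to different degrees. The Pearson correlation of log2 CPM with INSIG1 ran from -0.7 to 0.95 over the other 35 members, with a median of 0.68, and 13 exceeded 0.8. SCD had the highest (0.947), followed by HMGCS1 (0.933), SQLE (0.928), DHCR7 (0.912) and IDI1 (0.911), while ACSS2 was at -0.698. Of all tested genes, SLITRK2 (0.967), CPA4 (0.963), ALDH1B1 (0.959), GPX3 (0.959) and SPP1 (0.958) were the most alike, and SCD ranked 18. These are descriptions over 12 libraries in 4 groups that share depth, GC content and group differences. In batch 1 the correlations of the members with INSIG1 ran from -0.5 to 0.47, and the genes most like it were LOC90768 (0.913), TTN (0.834), THRAP3 (0.813), ZFPM2-AS1 (0.805) and ZNF471 (0.794).

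A wider list of 43 tested genes of sterol sensing, sterol transport, oxysterol and lipid metabolism was called in both directions. With ΔTFR4 against empty vector, 7 of the 43 rose (16.3%, against 12.5% of all genes) and 10 fell (23.3%, against 11.4%), with a median of -0.14. With ΔTFR5, 2 rose (4.65%, against 5.48%) and 8 fell (18.6%, against 4.68%), with a median of -0.09. Falls thus outnumbered rises in both comparisons. Differences in the list ran from -1.32 to 1.57 with ΔTFR4 and from -1.21 to 1.35 with ΔTFR5. The genes named next were picked by adjusted p, so their directions do not show the balance of the list. CYP27A1, which makes an oxysterol from cholesterol, rose by 1.57 ± 0.20 (adjusted p = 0.000558) and 1.35 ± 0.20 (adjusted p = 0.00232). FAXDC2, of the sterol desaturase family, rose by 1.08 ± 0.17 (adjusted p = 0.00172) and 1.27 ± 0.17 (adjusted p = 0.00187). PGRMC1, a haem protein that binds sterol-demethylating enzymes, changed by -0.91 ± 0.13 (adjusted p = 0.000916) and -0.77 ± 0.13 (adjusted p = 0.00444). GPAM, which starts glycerolipid synthesis, rose with ΔTFR4 (0.86 ± 0.12, adjusted p = 0.000728).

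Between ΔTFR4 and FL, 2 of the 43 rose and 2 fell (4.65% each, against 1.9% and 2.47% of all genes). GPAM and CYP27A1 rose (0.79 ± 0.11, adjusted p = 0.00421, and 0.83 ± 0.19, adjusted p = 0.031). PGRMC1 changed by -0.66 ± 0.13 (adjusted p = 0.0161) and ACSL3, an acyl-CoA synthetase, by -0.55 ± 0.14 (adjusted p = 0.0431). ACSL3 was the only gene of this list called between ΔTFR5 and FL, where it changed by -0.61 ± 0.14 (adjusted p = 0.0484). GPAM was the only one called between ΔTFR5 and ΔTFR4, with a difference of -0.65 ± 0.11 (adjusted p = 0.023).

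In batch 1 the members moved little, and the called ones split by GC content. With FL against empty vector, 4 of 35 members rose (against 11.4% of all 14310 genes tested) and 8 fell (against 11.3%), with a median of -0.05. IDI1, CYP51A1, SC5D and STARD4 rose, and their transcripts hold 38.6 to 42.5% GC. SREBF1, SREBF2, SCAP, PMVK, MVD, NSDHL, FASN and ACLY fell, at 51.7 to 65.3% GC. Over the 35 members, the Spearman rho between log2 fold change and GC content was -0.84 (a description across genes, which are not replicates). With each library's GC trend removed, 0 members passed edgeR's test, 9 had an unadjusted p under 0.05 (against 17.2% of all genes), and the lowest adjusted p was that of NSDHL, at 0.0578. In that fit 2.61% of all genes were called. The differences of NSDHL, PMVK, MVD and STARD4 were then -0.39, -0.40, -0.34 and 0.40, against -0.45, -0.57, -0.58 and 0.56 before, while SREBF1 and SCAP changed sign. In batch 2 the same rho was 0.02 for ΔTFR4 and 0.01 for ΔTFR5 against empty vector, -0.22 for FL against empty vector, and 0.42 and 0.47 for ΔTFR4 and ΔTFR5 against FL.

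**Figure D4:**
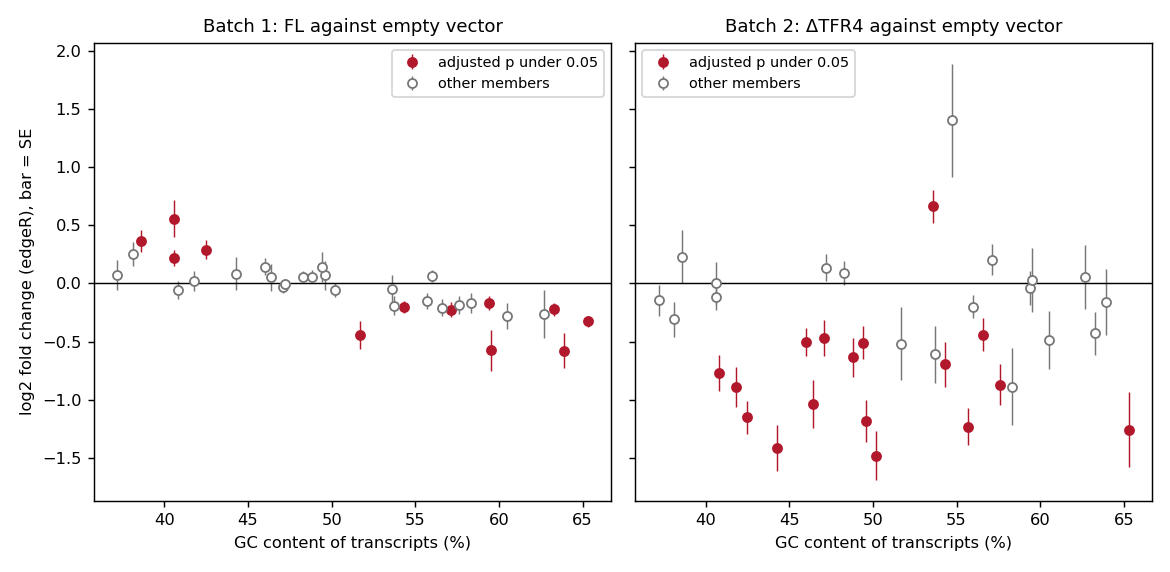
Log2 fold change with its SE of each member against the GC content of its transcripts, for FL against empty vector in batch 1 (left) and ΔTFR4 against empty vector in batch 2 (right), with filled points at an adjusted p under 0.05. On the left the values descend from low to high GC (rho -0.84 over 35 members), and on the right members that fell occur from 40.8 to 65.3% GC (rho 0.02 over 36).

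FASN had the lowest adjusted p of the members in batch 1. It lay at 778.1, 750.1 and 697.1 CPM with empty vector, 599.5, 634.6 and 543.2 with FL, 735.2, 705.4 and 704.5 with ΔTFR1 and 683.6, 717.5 and 697.4 with ΔTFR2. The FL libraries were below all others. The difference from empty vector was -0.32 ± 0.05 (adjusted p = 0.000317), and -0.04 with the GC trend removed. ACLY lay at 385.7, 347.1 and 346.8 CPM with empty vector, 328, 320.8 and 287.9 with FL, 344.5, 360.7 and 338.4 with ΔTFR1 and 348.9, 365.7 and 361.8 with ΔTFR2, again lowest with FL, and changed by -0.20 ± 0.05 (adjusted p = 0.00454). Of the 5 sterol sensors, SREBF1, SREBF2 and SCAP were also lowest with FL, and INSIG1 and INSIG2 were not. SREBF1 lay at 90.78, 96.07 and 95.36 CPM with empty vector, 82.45, 81.81 and 77.53 with FL, 90.26, 88.99 and 86.59 with ΔTFR1 and 88.42, 88.39 and 88.01 with ΔTFR2. SREBF2 lay at 69.64, 64.08 and 64.32 CPM with empty vector, 54.53, 59.86 and 55.1 with FL, 64.42, 65.66 and 61.62 with ΔTFR1 and 61.64, 63.75 and 66.26 with ΔTFR2. SCAP lay at 133.7, 123.7 and 116.2 CPM with empty vector, 116, 114.8 and 100.8 with FL, 126.7, 122.1 and 121.6 with ΔTFR1 and 133.3, 128.4 and 126.4 with ΔTFR2. The FL libraries of these 3 were below all empty vector libraries, although the nearest pair for SCAP lay at 116 and 116.2 CPM. SREBF1 changed by -0.22 ± 0.06 (adjusted p = 0.00533), SREBF2 by -0.22 ± 0.06 (adjusted p = 0.0127) and SCAP by -0.17 ± 0.06 (adjusted p = 0.0346). INSIG1 lay at 13.29, 12.67 and 14.4 CPM with empty vector, 12.2, 14.66 and 15.2 with FL, 13.43, 12.65 and 13.87 with ΔTFR1 and 12.47, 14.17 and 15.2 with ΔTFR2, and INSIG2 at 10.86, 11.27 and 10.99 CPM with empty vector, 13.49, 10.55 and 10.68 with FL, 12.17, 11.67 and 9.595 with ΔTFR1 and 9.35, 10.04 and 11.59 with ΔTFR2. Neither INSIG gene passed with FL, at 0.06 ± 0.12 (adjusted p = 0.777) and 0.07 ± 0.13 (adjusted p = 0.738).

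Members of the synthesis pathway were called on both sides. MVD lay at 9.117, 9.446 and 7.894 CPM with empty vector, 5.268, 6.818 and 5.392 with FL, 8.497, 7.743 and 9.017 with ΔTFR1 and 9.119, 7.718 and 7.763 with ΔTFR2, and its FL libraries were below all others. PMVK lay at 11.54, 8.051 and 8.747 CPM with empty vector, 7.302, 7.285 and 4.098 with FL, 7.808, 9.488 and 7.745 with ΔTFR1 and 8.311, 9.939 and 10.39 with ΔTFR2, lowest in FL replicate 3, and without overlap between FL and empty vector. NSDHL lay at 18.82, 19.32 and 13.87 CPM with empty vector, 13.22, 13.92 and 10.78 with FL, 15.85, 16.03 and 17.57 with ΔTFR1 and 16.39, 16.71 and 15.63 with ΔTFR2, where FL and empty vector overlapped by 1 library. These low-count genes fell with FL, with differences of -0.58 ± 0.15 (adjusted p = 0.00664), -0.57 ± 0.17 (adjusted p = 0.018) and -0.45 ± 0.12 (adjusted p = 0.00942). IDI1 lay at 39.08, 40.68 and 37.02 CPM with empty vector, 48.25, 42.21 and 52.95 with FL, 37.2, 43.62 and 43.7 with ΔTFR1 and 42.36, 44.93 and 37.83 with ΔTFR2. SC5D lay at 31.81, 27.16 and 32.43 CPM with empty vector, 40.67, 33.71 and 43.89 with FL, 28.48, 32.94 and 33.87 with ΔTFR1 and 34.05, 33.52 and 30.83 with ΔTFR2. STARD4 lay at 6.207, 6.655 and 7.36 CPM with empty vector, 10.44, 8.686 and 11 with FL, 7.923, 9.161 and 8.786 with ΔTFR1 and 8.08, 4.969 and 7.872 with ΔTFR2. The FL libraries of these 3 were above the empty vector libraries, and IDI1 rose by 0.29 ± 0.08 (adjusted p = 0.0135), SC5D by 0.36 ± 0.09 (adjusted p = 0.00576) and STARD4 by 0.56 ± 0.16 (adjusted p = 0.0106). CYP51A1 rose by 0.22 ± 0.07 (adjusted p = 0.0278). IDI1 thus was higher with FL in batch 1 and lower with FL in batch 2, where it did not pass, and the difference between the batches was not tested.

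Against FL, a few members were called with ΔTFR1 and ΔTFR2. With ΔTFR1 against FL, 5 of 35 members rose (MVK, MVD, DHCR7, FASN and ACLY, against 4.4% of all genes) and 2 fell (SC5D and ELOVL6, against 5.66%). Under median-ratio scaling 3 rose and 2 fell, so 5 of these 7 calls were kept. The share of all genes called in that fit is not given here. With ΔTFR2 against FL, 7 rose (SCAP, PMVK, MVD, DHCR7, FASN, ACLY and FADS2, against 4.86%) and 1 fell (STARD4, against 5.15%). FASN rose by 0.27 ± 0.05 (adjusted p = 0.00437) and 0.24 ± 0.05 (adjusted p = 0.00957), and ACLY by 0.15 ± 0.05 (adjusted p = 0.0444) and 0.20 ± 0.05 (adjusted p = 0.015). DHCR7 lay at 35.98, 35.42 and 33.92 CPM with empty vector, 30.5, 32.41 and 29.65 with FL, 38.58, 35.12 and 36.65 with ΔTFR1 and 36.59, 40.81 and 35.21 with ΔTFR2. Its FL libraries were below the other groups, and it rose by 0.25 ± 0.08 (adjusted p = 0.042) and 0.28 ± 0.08 (adjusted p = 0.0252). MVD rose by 0.51 ± 0.15 (adjusted p = 0.0322) and 0.47 ± 0.15 (adjusted p = 0.0457). MVK rose with ΔTFR1 by 0.38 ± 0.11 (adjusted p = 0.0317). PMVK, SCAP and FADS2 rose with ΔTFR2 by 0.58 ± 0.18 (adjusted p = 0.0337), 0.22 ± 0.06 (adjusted p = 0.0185) and 0.24 ± 0.08 (adjusted p = 0.0444).

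The falls were those of SC5D and ELOVL6 with ΔTFR1 (-0.31 ± 0.09, adjusted p = 0.0345, and -0.24 ± 0.08, adjusted p = 0.0386) and of STARD4 with ΔTFR2 (-0.52 ± 0.16, adjusted p = 0.0355). Rising members held 54.3 to 65.3% GC in both comparisons, and those that fell 38.6 to 46%. With the GC trend removed edgeR called 0 members in either comparison, with 4 and 8 at an unadjusted p under 0.05, against 13.8% and 13.6% of all genes. Without ΔTFR1 replicate 1, or without ΔTFR2 replicate 2, 0 members were called in the comparison of that group with FL. The share of all genes called in those fits is not given here. Both comparisons share their FL libraries with each other and with FL against empty vector.

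Against empty vector, edgeR called 0 of 35 members with ΔTFR1 and 0 with ΔTFR2, against 0.00699% and 0.014% of all genes. ΔTFR2 against ΔTFR1 called 0, against 0% of all genes. DESeq2 also called 0 members in each. In edgeR, 1, 0 and 1 members had an unadjusted p under 0.05, against 589, 597 and 551 of all 14310 genes. The members' log2 fold changes ran from -0.18 to 0.35 with ΔTFR1 and from -0.11 to 0.17 with ΔTFR2. ABCG1 had 2 counts over the 12 libraries of batch 1 and was not tested. ABCA1 and MYLIP did not pass in any comparison of the batch. Of the wider list of 43 genes, 8 rose (18.6%, against 11.4% of all genes) and 6 fell (14%, against 11.3%) with FL against empty vector. Those with the lowest adjusted p were MBTPS2, a protease that releases SREBP (0.35 ± 0.06, adjusted p = 0.000703), PAQR3, a Golgi anchor of SCAP (0.44 ± 0.09, adjusted p = 0.00237), SOAT1, which esterifies cholesterol (0.28 ± 0.06, adjusted p = 0.00249), and SCARB1, a lipoprotein receptor (-0.26 ± 0.06, adjusted p = 0.00323).

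Between ΔTFR1 and FL, 2 of the 43 rose (4.65%, against 4.4% of all genes) and 4 fell (9.3%, against 5.66%), led by SLC25A1, the mitochondrial citrate carrier (0.34 ± 0.08, adjusted p = 0.0138), LBR, a nuclear envelope sterol reductase (-0.23 ± 0.06, adjusted p = 0.0157), LIPA, the lysosomal lipase (-0.26 ± 0.07, adjusted p = 0.0183), and SOAT1 (-0.23 ± 0.06, adjusted p = 0.0213). Between ΔTFR2 and FL, 3 rose (6.98%, against 4.86%) and 2 fell (4.65%, against 5.15%), led by MBTPS2 (-0.27 ± 0.06, adjusted p = 0.011), SCARB1 (0.24 ± 0.06, adjusted p = 0.0144), SLC25A1 (0.30 ± 0.08, adjusted p = 0.0224) and SOAT1 (-0.23 ± 0.06, adjusted p = 0.0227).

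**Figure D5:**
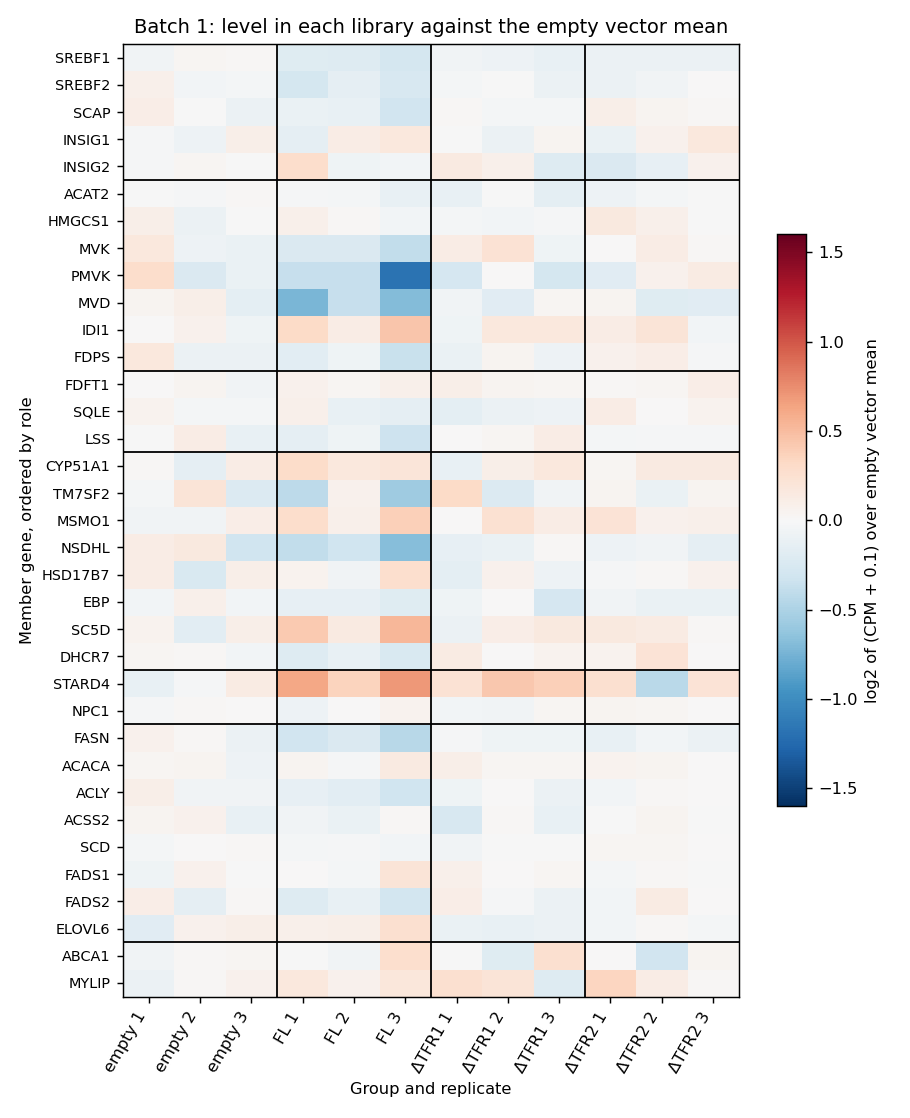
Level of the 35 tested members in the 12 libraries of batch 1, drawn as for batch 2 and on the same colour scale ending at ±1.6. Colours are pale apart from PMVK in FL replicate 3, and the FL columns show MVD, PMVK, NSDHL and FASN lower and STARD4, SC5D and IDI1 higher than with empty vector.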

How the data were processed

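RNA was sequenced (150-base paired reads, ribosomal RNA depleted, per the labels' protocols) in 24 libraries of transfected A375 cells, in 8 groups of 3 taken from the labels. Batch 1 was deposited by the authors as raw counts with 1 row per symbol. Batch 2 was deposited as salmon's estimated counts, and these were rounded to whole numbers here. Per the submitters' processing notes, the tools included STAR 2.7.3a, cutadapt 2.5, FastQC 0.11.5, featureCounts with Subread 1.6.2, and DESeq2 1.24.0. Those notes list the builds GRCh38 and GRCm38 without saying what each served for. The sources used here give neither the strand setting nor the annotation. Per the design text, the study re-used 6 samples deposited earlier, without saying which libraries these are.

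Because the counting differed between the tables, each batch was fitted apart, and no level was set across them. edgeR 4.0.16 (R 4.3.3) gave the main results: genes kept by filterByExpr (minimum count 10, minimum total 15), TMM scaling, a quasi-likelihood model over the 4 groups with robust dispersions, and Benjamini-Hochberg adjustment over all genes tested within a comparison. Calls needed an adjusted p under 0.05. Changes are log2 fold changes (prior count 2) ± standard error, and CPM values use TMM library sizes. Each comparison has n = 3 libraries per group. GC content is the median over a gene's GENCODE transcripts, known for 94.2% of tested genes in batch 1 and 98% in batch 2.

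The members, their roles, the wider list and the naming rule were chosen with earlier results of these data known. The rule gives library values for the 5 sterol sensors and for up to 12 members per batch with the lowest adjusted p. It names every called member and, per comparison, up to 4 called genes of the wider list with the lowest adjusted p. For ΔTFR5 against empty vector fewer than 4 of the wider list are named, although 8 of that list fell. Alternatives were DESeq2 1.42.0, RLE scaling, no low-count filter, a replicate block, GC trend removal, the 2 groups alone, and leaving out each library. Same-numbered libraries did not deviate together (correlations from -0.127 to 0.18 in batch 1 and -0.142 to 0.197 in batch 2), so the numbers were not treated as pairs. A gene of the wider list enters its counts, but its own values are not reported here.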

Additional observations from a re-analysis of the deposited data

How the results depend on the processing

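Precision is limited by 3 libraries per group and, in batch 2, by the spread of the FL libraries that enters every comparison. Of the 17 members called with ΔTFR4 and the 11 with ΔTFR5 against empty vector, all kept their call under DESeq2, RLE scaling, the replicate block, GC trend removal, the 2 groups alone and the added fit without FL replicate 1. Without the low-count filter 13 of the 17 and 11 of the 11 did. The share of all genes called also moved between some of these fits, as given above. Counts of members in this section are not set beside that share, so they describe the fits alone. In batch 2, the 2 groups alone gave 27 called members for ΔTFR4 against empty vector, 25 for ΔTFR5 against empty vector, 0 for ΔTFR4 against FL and 1 for ΔTFR5 against ΔTFR4. GC trend removal gave 19 for ΔTFR5 against empty vector, 4 for FL against empty vector and 4 for ΔTFR5 against FL. The fit without FL replicate 1, chosen after seeing the data, gave 21 for ΔTFR5 against empty vector. For FL against empty vector, DESeq2 called 11, no low-count filter 4 and the replicate block 1. For ΔTFR5 against FL, DESeq2 called 5 and no low-count filter 2. The replicate block gave 13 members for FL against empty vector in batch 1, and 9 and 12 for ΔTFR1 and ΔTFR2 against FL, and moved no count by over 1.5 times other than the change from 0 to 1 in batch 2.

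In batch 1, GC trend removal gave 0 members for FL against empty vector, ΔTFR1 against FL and ΔTFR2 against FL, with SREBF1 at 0.022 and SCAP at 0.013 against empty vector, their signs changed. DESeq2 gave 3 and 4 members for ΔTFR1 and ΔTFR2 against FL, and the 2 groups alone 1 and 3. In each of these comparisons DESeq2 gave an adjusted p to only 5 of the members that edgeR called. Leaving out 1 library gave 5 to 15 members for FL against empty vector (5 without empty vector replicate 1, 7 without FL replicate 3), 0 to 12 for ΔTFR1 against FL and 0 to 13 for ΔTFR2 against FL. For ΔTFR1 against FL the counts were 2, 12 and 1 without FL replicates 1, 2 and 3, and 0, 1 and 3 without ΔTFR1 replicates 1, 2 and 3. For ΔTFR2 against FL they were 4, 13 and 1 without FL replicates 1, 2 and 3, and 4, 0 and 2 without ΔTFR2 replicates 1, 2 and 3. The cause of these shifts was not tested. In batch 2 the ranges were 10 to 14 for ΔTFR4 against empty vector (10 without ΔTFR4 replicate 2) and 5 to 12 for ΔTFR5 against empty vector (6 without empty vector replicate 3, 7 and 5 without ΔTFR5 replicates 1 and 2). They were 0 to 19 for FL against empty vector (19 without FL replicate 3), 0 to 12 for ΔTFR4 against FL (12 without FL replicate 1, 0 without any ΔTFR4 replicate) and 0 to 8 for ΔTFR5 against FL (8, 2 and 7 without FL replicates 1, 2 and 3, 1 without ΔTFR5 replicate 3).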
